A study of Mus musculus with 6 samples.

Results

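Cd247 on mouse chromosome 1 and Hivep3 on chromosome 4 are loci at which more mSin3A ChIP-seq reads were listed in wild-type CD8 T cells than in CD8 T cells without Tcf1 and Lef1. They were chosen by that difference in the same libraries, so the genotype values below describe them and no test of genotype is attached. All islands (stretches of enriched signal) of the deposited lists that shared at least 1 bp with chr1:167708000-167815000 (Cd247) or chr4:119400000-119820000 (Hivep3) were taken, on build mm9. These were 50 of 54058 islands, 27 at Cd247 and 23 at Hivep3. The deficient lists gave 22 of them and the wild-type (WT) lists 28.

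Cd247 encodes the CD3 zeta chain, which carries the signal of the T cell receptor: its ITAM motifs are phosphorylated by Lck and then bind the kinase Zap70. Hivep3, also called Schnurri-3 or KRC, encodes a large zinc finger protein that binds kappa B-like DNA motifs and is known from mouse T cells and from bone formation. mSin3A is the scaffold of a co-repressor complex that brings histone deacetylases to chromatin. It does not bind DNA by itself and is recruited through transcription factors. Tcf1 and Lef1 are HMG-box transcription factors that T cells need for their development and for keeping the CD8 identity.

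Cells of a deficient and of a WT genotype were compared. Deficient cells, labelled Tcf1-/-Lef1-/-, came from mice in which CD4-Cre had removed both factors, so the deletion began in developing T cells of the thymus and their precursors were spared. WT cells came from control mice, for which no further allele is given. In both, splenic T cells with high TCRbeta and with CD8 were sorted, and mSin3A was immunoprecipitated once in condition 1 and once in condition 2. How the conditions differ, the age and the number of mice are not stated, and 1 input library of each genotype was not analysed here. The 4 lists held 11151 to 15954 islands with 1792952 to 1917097 reads in islands, and the cell type could not be checked at marker genes because no mm9 annotation was at hand. With 1 library for each genotype and condition there is no replicate. Ratios are deficient over WT, each condition set to a median of 0 on the log2 scale over the 5637 regions called in all 4 libraries, and their exact 95% intervals cover counting error only.

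The Cd247 promoter is shown first because an island lay over it in every library. The position given for it, 167718800 on the plus strand of chromosome 1 (mm9), fell inside 167717601 to 167724399 in deficient condition 2 and inside 167718001 to 167721999 in every other library. The sequence runs from 250 bases before to 50 bases after the start of the RefSeq transcript and lies on the plus strand at chr1:165788431-165788730 of GRCm38.p6. Positions were not carried over between the builds. Capitals mark matches to CTTTGA, a short form of the TCF/LEF motif, and to GGAAGT, a short form of the ETS motif, searched on both strands.

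Cd247 promoter, 5′ to 3′: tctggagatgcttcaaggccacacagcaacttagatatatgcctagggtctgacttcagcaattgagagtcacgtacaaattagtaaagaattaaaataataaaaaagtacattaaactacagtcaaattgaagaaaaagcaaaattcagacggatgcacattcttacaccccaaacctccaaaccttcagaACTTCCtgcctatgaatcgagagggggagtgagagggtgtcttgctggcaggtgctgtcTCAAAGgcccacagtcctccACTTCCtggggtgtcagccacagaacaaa

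Counted from 1 at its 5′ end, this window held the TCF/LEF short form once, at 252 to 257 on the minus strand, and the ETS short form at 193 to 198 and at 272 to 277, also on the minus strand. The matches did not overlap. The longer TCF/LEF forms CTTTGAA and CTTTGAT, and likewise CTTTGTA and CTTTGTT, had no match there. Among 32851 promoter windows of the same length in the RefSeq table, 16.0% held the short TCF/LEF form, 16.9% a longer one and 23.8% the ETS short form. A match is a string of letters and was not tested as a binding site.

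Most of the difference in reads at Cd247 lay in 1 short stretch downstream of the promoter. A second region nearer to the promoter was also more than 2-fold lower in deficient cells by reads, but not per kb. The interval of its ratio of reads included 2-fold in condition 2. Over the locus, islands held 979 and 1139 reads in deficient cells (conditions 1 and 2), against 3508 and 3262 reads in WT cells. These were 0.0515% and 0.0594% of all island reads of the deficient lists, against 0.189% and 0.182% of the WT lists. The log2 ratio was -1.78 (95% interval -1.88 to -1.68) in condition 1 and -1.43 (-1.53 to -1.33) in condition 2. Called length did not follow: it was 41.2 and 47.0 kb in deficient cells, against 55.4 and 42.2 kb in WT cells, so that deficient cells had less in condition 1 and more in condition 2.

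**Figure D1:**
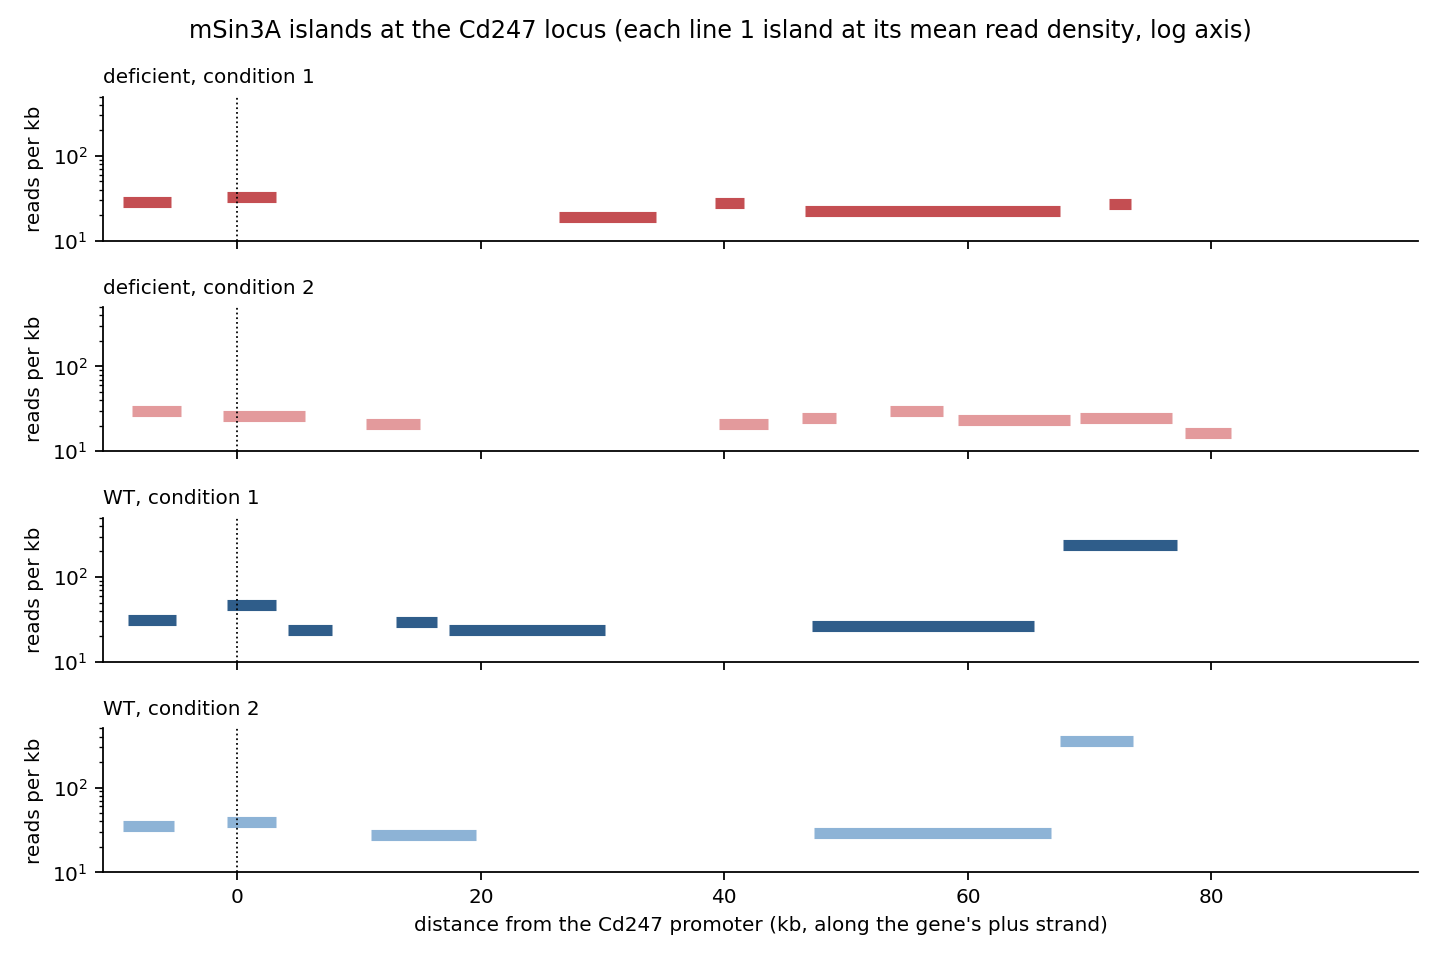
mSin3A islands at the Cd247 locus in the 4 libraries; the x axis is the distance from the promoter in kb, the y axis the mean reads per kb of each island on a log axis, and the dotted line marks the promoter. Every library has an island over the promoter, and the WT libraries alone have 1 island above 100 reads per kb, at 237 and 358 reads per kb.

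Both WT libraries listed an island of very high read density there. In WT condition 1 it ran from 167786601 to 167795999 with 2227 reads (237 reads per kb), and in WT condition 2 from 167786401 to 167792399 with 2150 reads (358 reads per kb). It ranked 8 of 13397 and 4 of 11151 islands by density in its list. The read numbers were nearly the same although the condition 2 island was 5999 bp wide and the condition 1 island 9399 bp. No deficient island at Cd247 passed 32.8 reads per kb. Where it lay, deficient condition 1 listed 167790401 to 167792199 with 48 reads, and deficient condition 2 listed 167788001 to 167795599 with 187 reads and the upper end of 167778001 to 167787199, an island of 216 reads.

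The dense stretch, taken as the span of both WT islands, began 67.6 kb and ended 77.2 kb downstream of the promoter. Its bounds were set by WT islands alone, so lower values of deficient cells on it follow in part from that choice. With reads of islands that cross the edge of the stretch shared out by bases, it held 48 and 206 reads in deficient cells, against 2227 and 2150 reads in WT cells. The log2 ratio was -5.47 (95% interval -5.92 to -5.06) in condition 1 and -3.30 (-3.51 to -3.09) in condition 2. Of the 9599 bp of the stretch, 1799 and 8398 bp were called in deficient cells, against 9399 and 5999 bp in WT cells. Reads on uncalled bases are unknown and not counted, so these ratios also follow called length. By the densest island on the stretch, deficient cells had 26.7 and 24.6 reads per kb, against 237 and 358 reads per kb in WT cells, which are ratios of 0.113 and 0.0687. The deficient densities were close to the median of all islands of their lists, 27.2 and 28.1 reads per kb. Exons and introns of Cd247 cannot be assigned to the stretch without an mm9 annotation, and with the inputs not analysed here the background on it is unknown.

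The dense islands made 63.5% of the Cd247 reads in WT condition 1 and 65.9% in WT condition 2. With the reads of the whole stretch taken out of every library, the log2 ratio of the locus was -0.40 in condition 1 and -0.17 in condition 2, still lower in deficient cells but less than 2-fold. The stretch was bounded by WT islands, so a smaller difference without it follows in part from that choice.

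Islands of this density were rare. At least 100 reads per kb was reached by 35 and 30 islands in the deficient lists, against 32 and 21 islands in the WT lists. In 12 places such an island of WT condition 1 met one of WT condition 2. Of these, 6 were as dense in both deficient lists and 3 in 1 deficient list, 1 was in neither deficient list, and 2 were listed in both but passed the limit in neither. One of these last 2 was Cd247. The other, at 20820401 to 20822399 on chromosome 2, had 76.4 and 97.6 reads per kb in deficient cells, against 126 and 136 reads per kb in WT cells. Only the value of deficient condition 2 was close to the limit. Over the 8 places other than Cd247 that both deficient lists held, the ratio of densities ran from 0.482 to 1.84, against 0.113 and 0.0687 at Cd247. The neighbours 166426601 to 166434599 and 166435801 to 166447199 on chromosome X both had 192 and 200 reads per kb in deficient cells. They may share the same deficient islands, so the places may not all be separate. The first of them gave the ratio of 1.84. The places were picked by WT density, and Cd247 for its lower reads in deficient cells, so this is a description. That range leaves out 2 places that 1 deficient list alone held and the 1 that neither held. The place in neither deficient list was 7228801 to 7238399 on chromosome 10. In WT cells it had 317 and 396 reads per kb, denser than the Cd247 island in each condition. No ratio can be given for it, but Cd247 was thus not the only such WT island without a dense deficient one.

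The islands of all lists were merged into regions where they shared a base or touched, which gave 6 regions at Cd247. Of these, 4 (66.7%) were called in all 4 libraries, a pattern of 24.0% of all regions. Another 1 was called in both deficient libraries alone, and 1 in deficient condition 2 alone (8.77% of all regions). None was called in WT alone, a pattern of 2.91% of all 23510 regions. The region of deficient cells alone, 167758001 to 167762399, held 66 and 84 reads there. This pattern was seen in 8.98% of all regions. The region of deficient condition 2 alone, 167796601 to 167800399, held 63 reads.

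The leading region, 167765201 to 167795999, holds the dense stretch at its upper end. It contained 518 and 604 reads in deficient cells, against 2709 and 2720 reads in WT cells, and the log2 ratio was -2.33 (95% interval -2.46 to -2.19) in condition 1 and -2.09 (-2.22 to -1.96) in condition 2. Per kb of called length the log2 ratio was -2.12 and -2.08, the lowest of the 5637 regions in each condition. By reads it ranked 6 and 8 from the lowest. Of these regions, 0.408% had at least 2-fold fewer reads in both deficient libraries than in WT cells of the same condition, and 0.0355% had at least 2-fold fewer reads per kb. At Cd247, 2 of 4 regions passed by reads and 1 passed per kb, counts that belong to the contrast for which the locus was chosen. Between the conditions the same region moved little. Condition 2 over condition 1 gave a fold of 1.11 (0.982 to 1.25) in deficient cells and 0.928 (0.880 to 0.979) in WT cells.

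**Figure D2:**
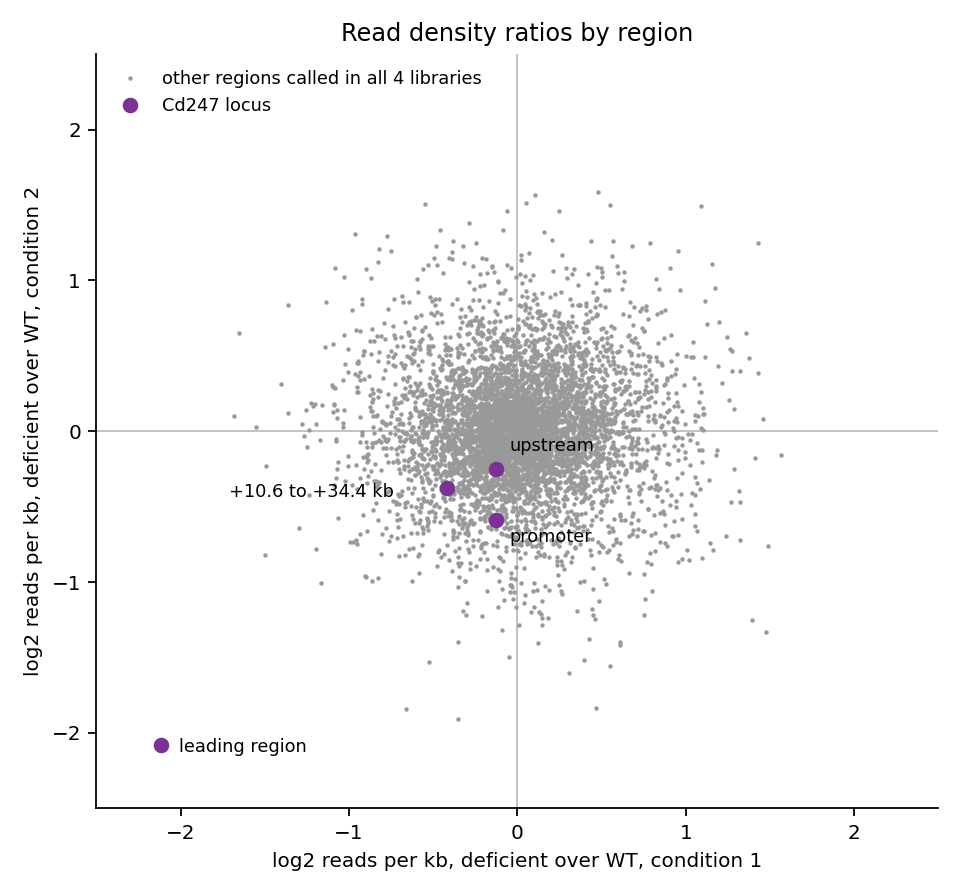
Ratios of reads per kb for the 5637 regions called in all 4 libraries; the axes give the log2 ratio of deficient over WT in condition 1 (x) and condition 2 (y), each centred on its median. The leading Cd247 region sits alone at -2.12 and -2.08, while the other Cd247 regions lie among the grey points of all other regions.

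Below the dense stretch the genotypes differed by less than counting error in condition 1, and the count was lower in deficient cells in condition 2. From 46.4 to 67.6 kb downstream of the promoter it held 470 and 398 reads in deficient cells, against 482 and 570 reads in WT cells. The log2 ratio was 0.03 (95% interval -0.16 to 0.21) in condition 1 and -0.43 (-0.62 to -0.25) in condition 2. WT cells had 1 island here in each condition. Deficient cells had 1 island of 20999 bp in condition 1, which ranked 64 of 15954 by width, and 3 islands in condition 2, the highest of which ran on into the dense stretch. Broad calls of ordinary density thus lay on this part in both genotypes, with 22.4 and 25.5 reads per kb in deficient cells, against 26.5 and 29.4 reads per kb in WT cells.

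At the promoter the genotypes differed less than 2-fold, and by reads not in the same direction. The island over it held 131 and 177 reads in deficient cells, against 185 and 157 reads in WT cells. The log2 ratio was -0.44 (95% interval -0.77 to -0.11) in condition 1 and 0.26 (-0.06 to 0.58) in condition 2, and the second of these intervals included 0. The island was 6799 bp wide in deficient condition 2 and 3999 bp in each other library, so that per kb deficient cells had 32.8 and 26.0 reads, against 46.3 and 39.3 reads in WT cells (log2 ratio -0.50 and -0.59). Among all islands of its list, the promoter island ranked at percentile 68.6 and 77.2 by reads in deficient cells, against 79.7 and 63.0 in WT cells. WT condition 1 alone had a further island in this region, 167723001 to 167726599, with 86 reads.

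Upstream of the promoter, 167709401 to 167714199 was the most even region. It held 114 and 118 reads in deficient cells, against 124 and 148 reads in WT cells. The log2 ratio was -0.06 (95% interval -0.44 to 0.32) in condition 1 and -0.24 (-0.60 to 0.12) in condition 2, and both intervals included 0. They reach to 1.36-fold and 1.52-fold lower in deficient cells, so equality is not shown.

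Downstream of the promoter, 167729401 to 167753199 was lower in deficient cells in both conditions, mostly by called length. It held 150 and 93 reads in deficient cells, against 404 and 237 reads in WT cells, which is a log2 ratio of -1.37 (95% interval -1.65 to -1.09) and -1.26 (-1.63 to -0.91). Its called length was 7999 and 4399 bp in deficient cells, against 16198 and 8599 bp in WT cells. Per kb the log2 ratio was -0.42 and -0.38, within the 5th to 95th percentile of all regions, which ran from -0.65 to 0.70 in condition 1 and from -0.65 to 0.67 in condition 2. The deficient islands of conditions 1 and 2 did not overlap each other here, so no base of the region was called in all 4 libraries. In condition 1 the deficient island, 167745201 to 167753199, met only the upper end of the WT island 167736201 to 167748999. The ratio of condition 1 thus sets partly different bases against each other. This region also differed between the conditions: condition 2 over condition 1 was 0.588 (95% interval 0.449 to 0.767) in deficient cells and 0.542 (0.460 to 0.638) in WT cells.

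**Figure D3:**
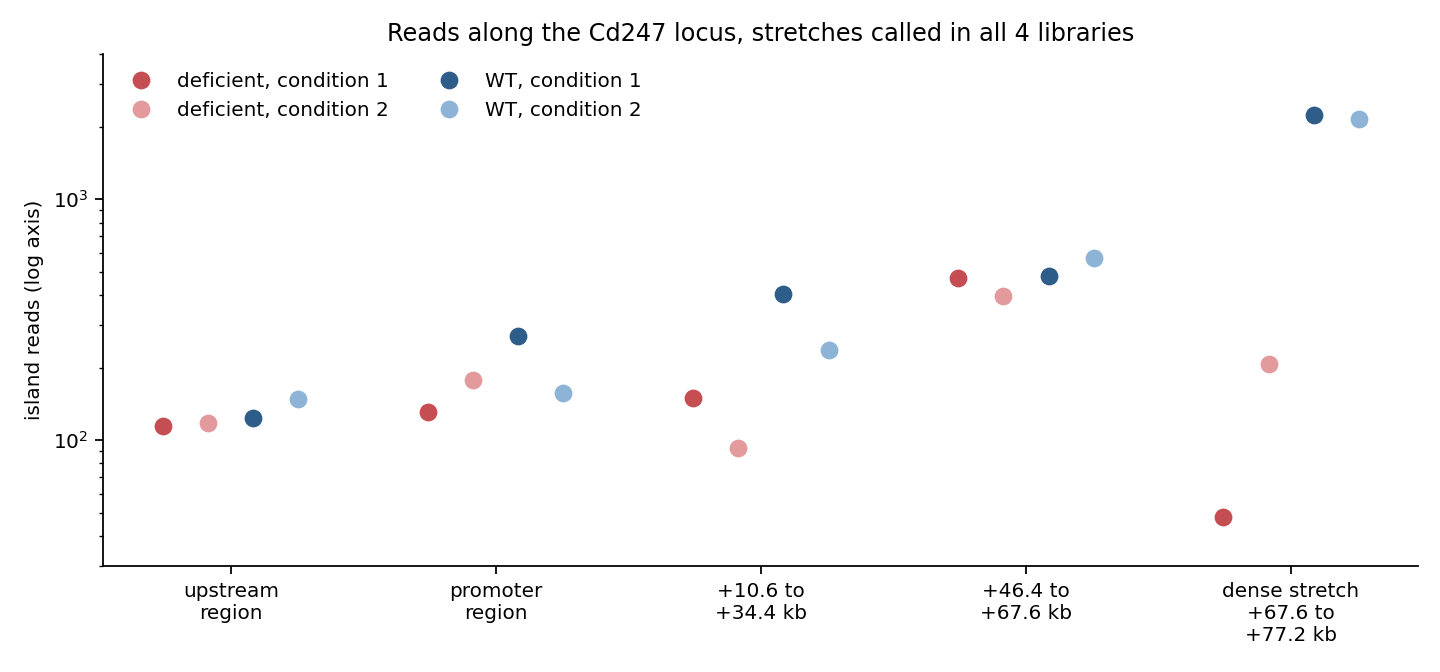
Island reads (log axis) in each of the 4 libraries for 5 stretches of the Cd247 locus, ordered along the gene. Each stretch has an island in every library, though not always on the same bases. The genotypes overlap at the promoter region, where the deficient values of 131 and 177 lie on either side of the lower WT value of 157, and stand farthest apart on the dense stretch, at 48 and 206 reads in deficient cells and 2227 and 2150 reads in WT cells.

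The 3 regions named here were those most like the leading Cd247 region over the 4 libraries in log2 reads per kb, each library centred on its median and each region on its own mean. They were 87534601 to 87541999 on chromosome 14, 157022801 to 157031199 on chromosome 2 and 172144801 to 172147799 on chromosome 1, at Euclidean distances of 1.105, 1.130 and 1.179 on the log2 scale. Their differences were smaller. The nearest had 35.8 and 20.3 reads per kb in deficient cells, against 56.5 and 72.9 reads per kb in WT cells. In reads none of the 3 went the same way. The nearest held 86 and 142 reads in deficient cells, against 79 and 102 reads in WT cells, since its called length was greater in deficient cells. The region on chromosome 2 held 219 and 192 reads in deficient cells, against 111 and 124 reads in WT cells. The region on chromosome 1 held 57 and 75 reads in deficient cells, against 48 and 49 reads in WT cells.

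Hivep3 differed in another way: islands of ordinary density covered 2.48% and 1.05% of the locus in deficient cells, against 15.2% and 15.9% in WT cells. Its islands held 256 and 128 reads in deficient cells, against 1631 and 1815 reads in WT cells. The log2 ratio was -2.61 (95% interval -2.81 to -2.42) in condition 1 and -3.74 (-4.01 to -3.48) in condition 2. Called length was 10.4 and 4.4 kb in deficient cells, against 63.8 and 66.8 kb in WT cells. Read density over the called bases was close, at 24.6 and 29.1 reads per kb in deficient cells, against 25.6 and 27.2 reads per kb in WT cells. Only 2.28% of the bases called at Hivep3 were called in both genotypes, so these densities come mostly from different bases. Lists hold reads of called islands alone, so reads between islands are unknown and these ratios follow what was called.

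**Figure D4:**
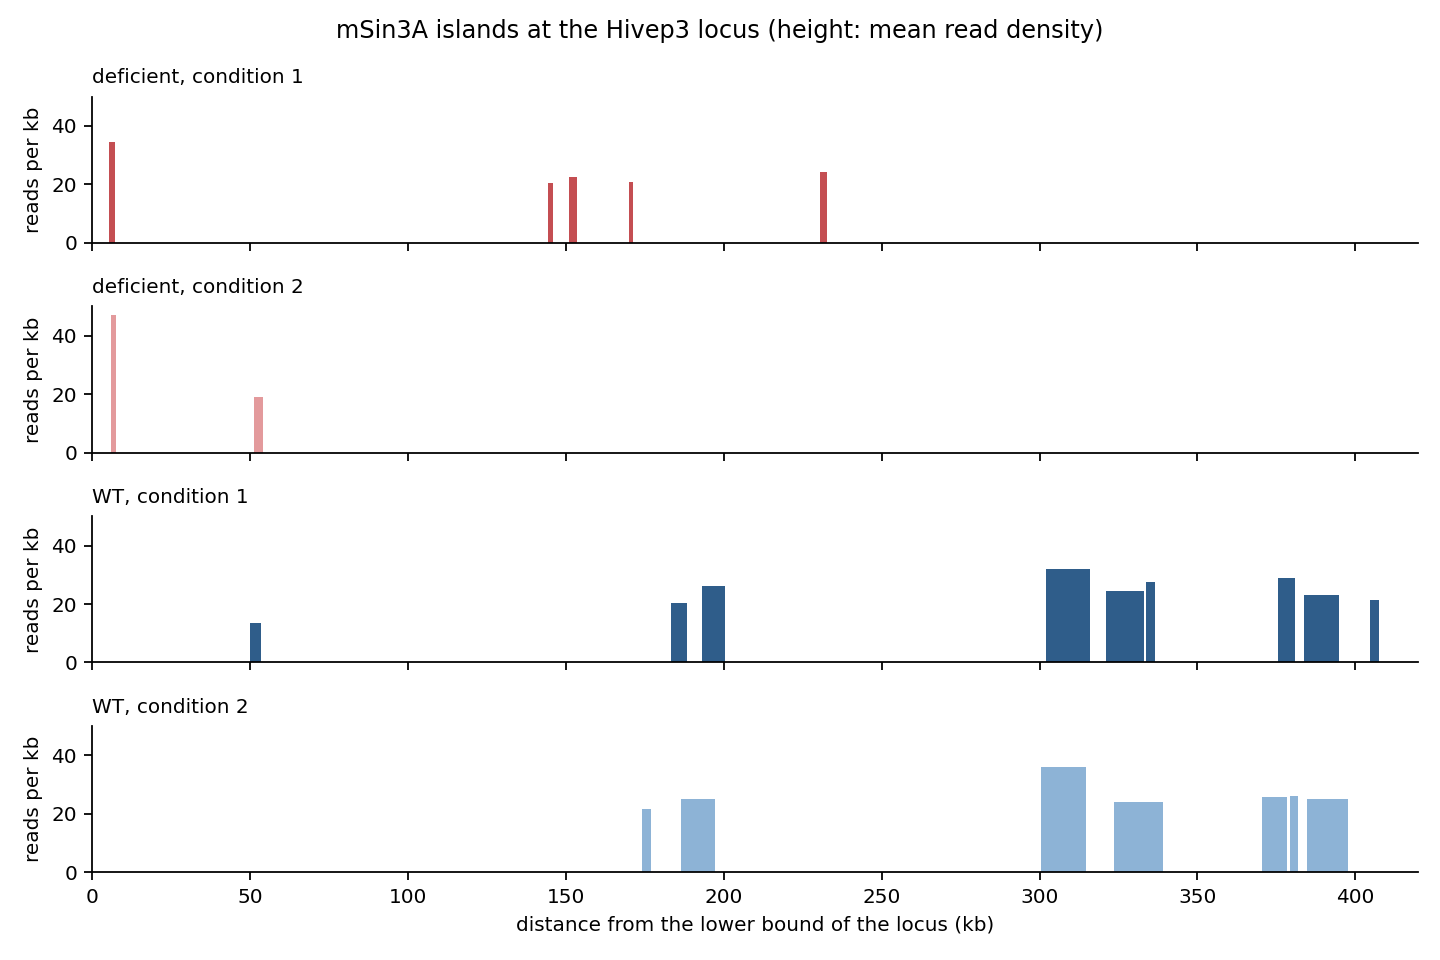
mSin3A islands at the Hivep3 locus in the 4 libraries; the x axis is the distance from the lower bound of the locus in kb and the bar height the mean reads per kb of each island. The WT islands have 13.6 to 36.1 reads per kb and lie mostly above 183.2 kb, and the deficient libraries have no island beyond 232.8 kb.

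Merging gave 13 regions at Hivep3, of which 5 were called in both WT libraries and in neither deficient library, where 2.91% of all regions have this pattern. None was called in all 4 libraries, a pattern of 24.0% of all regions. The 5 WT regions spanned 214.6 kb and held 1754 reads together in WT condition 2 and 1522 reads in WT condition 1. The richest, 119700601 to 119715999, held 513 reads in condition 2 and 450 reads in condition 1, which ranked 2 and 3 among the 685 WT-only regions. Next to it, 119721001 to 119738999 held 370 reads in condition 2 and 372 in condition 1, ranks 7 and 5. Farther up, 119783801 to 119797799 held 328 reads in condition 2 and 255 in condition 1, and 119770601 to 119781999 held 273 in condition 2 and 156 in condition 1. Lower on the chromosome, 119583201 to 119600399 held 270 reads in condition 2 and 289 in condition 1. That both WT libraries listed each of the 5 regions follows from how the pattern is defined. Condition 2 over condition 1 was 1.05 (95% interval 0.927 to 1.20) for the richest and 0.920 (0.794 to 1.06) for its neighbour. For 119583201 to 119600399 it was 0.864 (0.729 to 1.02). It was 1.19 (1.01 to 1.41) for 119783801 to 119797799 and highest for 119770601 to 119781999, at 1.62 (1.32 to 1.98). Both of these last intervals lay above 1. No fold between genotypes can be given for the 5 regions, since an unlisted region has an unknown read number.

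More WT-only regions began within 1 length of the locus here than from any other WT-only region of the genome. Within 420 kb upward of the start of the lowest of the 5, 6 WT-only regions began, 1 of them beyond the upper bound of the locus. From 2 starts elsewhere on chromosome 4, at 134153401 and 149237401, 5 began within the same length. The locus was chosen with its WT-only regions known, so this is a description. Each WT library also had 1 region of its own at Hivep3, 119804601 to 119807399 with 60 reads in condition 1 and 119574001 to 119576799 with 61 reads in condition 2. Regions of WT condition 1 alone made 15.4% of all regions, and those of WT condition 2 alone 9.27%, against 7.69% each at Hivep3.

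The deficient islands at Hivep3 were few and small. Condition 1 had 5 islands with 29 to 69 reads, and condition 2 had 2 islands with 53 and 75 reads. None of them reached the median reads of its list, which was 94 and 112 reads, whereas 5 of 9 and 5 of 7 WT islands did so for the WT medians of 106 and 127 reads. One place was shared by both deficient libraries and absent from WT: 119405201 to 119407399, near the lower bound, with 69 and 75 reads, a pattern of 8.98% of all regions. One low region, 119449801 to 119453999, was listed in deficient condition 2 with 53 reads and in WT condition 1 with 49 reads. That pattern made 1.05% of all regions. The remaining 4 deficient islands, all of condition 1, met no island of another list. Regions of deficient condition 1 alone made 30.8% of the regions at Hivep3 and 14.7% of all regions.

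By bases, 96.4 kb of the Hivep3 locus were called in at least 1 library. Of these, 1.45% were called in both deficient libraries and neither WT library, and 47.1% in both WT libraries and neither deficient library. Over all chromosomes those shares were 6.28% and 3.90%. Bases called in both genotypes made 2.28% at Hivep3 and 39.5% over all chromosomes. At Cd247, 76.6 kb were called, of which 59.5% were called in both genotypes, 4.44% in both deficient libraries alone and 5.74% in both WT libraries alone. The loci therefore had unlike patterns of calls although both held fewer reads in deficient cells.

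Windows of the same length over all chromosomes give the background of such differences. Of 6032 windows of 107 kb with at least 200 reads summed over the 4 lists, 2.7% had at least 2-fold fewer reads in deficient cells in both conditions, and 94 windows had ratios as low as those of Cd247 in both. Of the 2304 windows with at least 1000 reads, a minimum added after the data were seen, the share was 0.694%, and 7 windows were as low as Cd247. For windows of 420 kb the shares were 1.66% of 2952 and 0.49% of 1835, and 18 of the 2952 and 2 of the 1835 were as low as Hivep3 in both conditions. Windows that cover part of a locus are among them. The loci were chosen for their low ratios, so their place in this range is a description.

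The flanks of equal length behaved differently at the ends of the loci. Below Cd247, islands held 745 and 991 reads in deficient cells, against 463 and 1015 reads in WT cells, a log2 ratio of 0.75 (95% interval 0.58 to 0.92) in condition 1 and 0.05 (-0.08 to 0.18) in condition 2. In the 107 kb above Cd247 no library listed an island. Below Hivep3 the flank held 495 and 643 reads in deficient cells, against 489 and 589 reads in WT cells, with log2 ratios of 0.08 (-0.10 to 0.26) and 0.21 (0.05 to 0.38). Above Hivep3 the flank was again lower in deficient cells, with 44 and 83 reads against 328 and 270 reads in WT cells and log2 ratios of -2.84 (-3.33 to -2.38) and -1.62 (-1.99 to -1.26). The bounds used for Hivep3 therefore do not mark the end of its lower reads in deficient cells on that side.

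**Figure D5:**
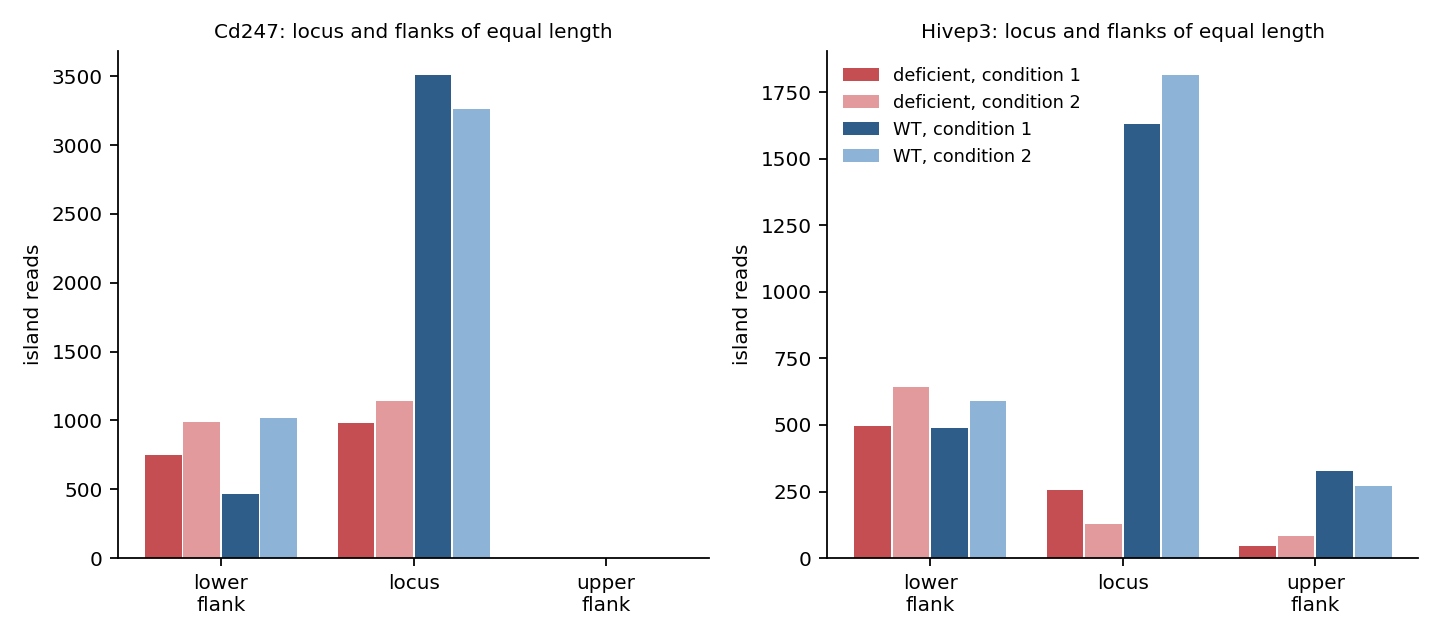
Island reads at the Cd247 and Hivep3 loci and in the flanks of equal length below and above each, in the 4 libraries; bars are single libraries and start at 0. At both loci the WT bars stand above the deficient bars, the lower flanks do not share this order, and above Hivep3 the deficient bars are again lower, at 44 and 83 reads.

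Islands closest to the bounds were as follows. At Cd247 the first island inside lay 1.4 to 2.2 kb above the lower bound, with 114 to 148 reads, and the last island outside lay 4.2 to 59.2 kb below it, with 43 to 181 reads. On the upper side the last island inside ended 14.6 to 22.8 kb before the bound, and the first outside began 115.4 to 115.6 kb beyond it, with 221 and 258 reads in deficient cells, against 214 and 248 reads in WT cells. At Hivep3 the last island outside the lower bound lay 185.8 to 186.4 kb away, with 121 and 117 reads in deficient cells, against 179 and 134 reads in WT cells. Beyond the upper bound the first island lay 257.2 and 256.2 kb away in deficient cells, against 50.8 and 132.2 kb in WT cells.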

How the data were processed

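The submitters' processing notes name FastQC, Bowtie2 2.2.5, SICER 1.1 and build mm9. SICER joins neighbouring enriched windows into islands. How its window, gap and threshold were set, and whether inputs were used, was not given in the sources used here. The authors deposited 1 island list per ChIP library, with no header, and column 4 was read as the count of reads per island, unscaled, from the values. Depth is known only as reads in islands. The loci and the promoter position were given beforehand on mm9. The members and lists were chosen with earlier results of these data known, and no T cell receptor pathway gene other than Cd247 was placed, for want of an mm9 annotation. Starts are 1-based, ends as deposited, and widths are the deposited end minus start.

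From the lists, reads, called length and density were summed by locus, merged region and window, with exact Clopper-Pearson 95% intervals on ratios. There was no test, since each genotype and condition is 1 library. Named were all regions at the loci called in 2 or more libraries, and the 3 regions most like the leading one. The dense islands (at least 100 reads per kb) and the window minimum of 1000 reads were added after the data were seen. Merging and intervals were tested on simulated lists. Python 3.11.15, numpy 2.4.6, pandas 2.3.3, scipy 1.17.1.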

Additional observations from a re-analysis of the deposited data

Results flagged for a closer look

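The promoter region of Cd247, 167717601 to 167726599 on chromosome 1, went in opposite directions in the conditions by reads, not by density. Its log2 ratio of reads, deficient over WT, was -0.99 in condition 1 and 0.26 in condition 2, from 131 and 177 reads in deficient cells, against 271 and 157 reads in WT cells. The counting interval of the second ratio, -0.06 to 0.58, included 0. Per kb of called length the log2 ratio was -0.13 and -0.59, lower in deficient cells in both conditions. Each condition has 1 library of each genotype, and the difference between the conditions was not tested.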

How the results depend on the processing

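Of 72 values under alternatives, 54 stayed within the counting interval of the reported ratio, or within 1.5 times for lengths and numbers of regions. For Cd247 reads in conditions 1 and 2, the log2 ratio moved to -1.42 and -1.67 per kb, to -1.51 and -1.02 with bounds widened by 50 kb, to -0.40 and -0.17 without the dense stretch, and to -0.33 and 0.12 without the dense islands. That last change of sign follows from its construction, since the limit of 100 reads per kb removes reads of WT cells at Cd247 and none of deficient cells. The dense stretch was also bounded by WT islands, so the smaller differences without it follow in part from that choice. In condition 2 alone the log2 ratio of Cd247 reads moved to -1.61 with scaling by total island reads. It moved to -1.89 in the upper 50% of each list, where called length reversed to -0.40 from 0.16. For Hivep3 the log2 ratio of reads was -0.061 and 0.105 per kb, reversed in condition 2, and -3.53 and -4.51 with lists of equal length, where called length gave -3.65 and -5.38. In the upper 50% of each list no deficient island was left at Hivep3, so that no ratio could be had. By construction, leaving out poor islands removes more of the few deficient ones. The WT-only regions at Hivep3 numbered 4 after joining within 2 kb and 3 with a reciprocal overlap of 50%, and none appeared at Cd247 under any of the 4 alternatives. The cause of the other moves was not tested. No paired analysis was possible because the labels give no replicate numbers and the conditions were not taken as replicates. Every ratio was taken within a condition. Counting error limits the smaller regions, and lists without the reads between islands limit every ratio.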
